A study of Mus musculus with 15 samples.

Results

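Artemis-deficient mouse pre-B cells (Art) were compared with Rag-deficient pre-B cells in which the transcription factor SPIC was induced with doxycycline (Rag_SPIC_tet_DOX). The libraries were taken by their labels, 3 for each group, so 6 of the 15 libraries of the series enter the comparison. All were Abelson lines, meaning pre-B cells made to grow in culture by the viral kinase v-Abl, at passage 10 to 15. Each had been in imatinib, which blocks that kinase, for 48 h, and none of the 6 carries a short hairpin RNA. Art cells are Art -/-, and their labels name neither a SPIC construct nor doxycycline. Rag_SPIC_tet_DOX cells are Rag -/-, carry a tetracycline-inducible SPIC construct and received doxycycline (agent DOX). Rag_SPIC_tet_NoDOX cells, with the same genotype and construct and no agent, gave 3 libraries that are shown for reference only. The sources used here do not say how many clones each line represents or whether libraries of a group were separate cultures. The p-values therefore reflect the scatter among these libraries, which may be technical. Each group has n = 3, except in fits said to leave libraries out, where a group that loses a library is smaller.

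When imatinib stops v-Abl signalling, Abelson cells leave the cycle and switch on the RAG recombinase, which cuts DNA at antigen receptor genes. Artemis opens the hairpin ends left by the cut, so breaks persist in cells that lack it and signal through the ATM kinase, whereas cells without RAG make no such breaks. SPIC is a relative of PU.1 and SPIB, ETS-family factors that bind purine-rich DNA with a GGAA core and drive B-cell genes. The comparison thus sets cells able to make RAG breaks against cells with SPIC on and no breaks. The lines also differ in genotype, construct and doxycycline, and these cannot be told apart here.

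All values are log2 CPM, the read count scaled to the size of its library on a log2 scale, and differences are Art minus Rag_SPIC_tet_DOX. Art replicates 1 to 3 had effective sizes of 25.9, 17.2 and 5.81 M reads, and those of Rag_SPIC_tet_DOX ranged from 21.6 to 23.2 M. Both groups were uneven. Art replicate 3 lay 0.94 and 0.95 log2 units (root mean square over genes) from Art replicates 1 and 2, which lay 0.27 apart. Rag_SPIC_tet_DOX replicate 2 lay 0.83 from replicate 1 and 0.58 from replicate 3. Pairs across the groups lay 0.63 to 1.26 apart, so the shortest of these distances was below the longest within either group. The signed deviation of Art replicate 3 from the Art mean had a Spearman correlation of 0.62 with the GC content of the gene. This was across 11545 genes, which are not independent. All 12 pre-B markers were measured, at a mean of 9.38 to 9.55 log2 CPM in the Art libraries and 8.59 to 9.07 in Rag_SPIC_tet_DOX.

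**Figure D1:**
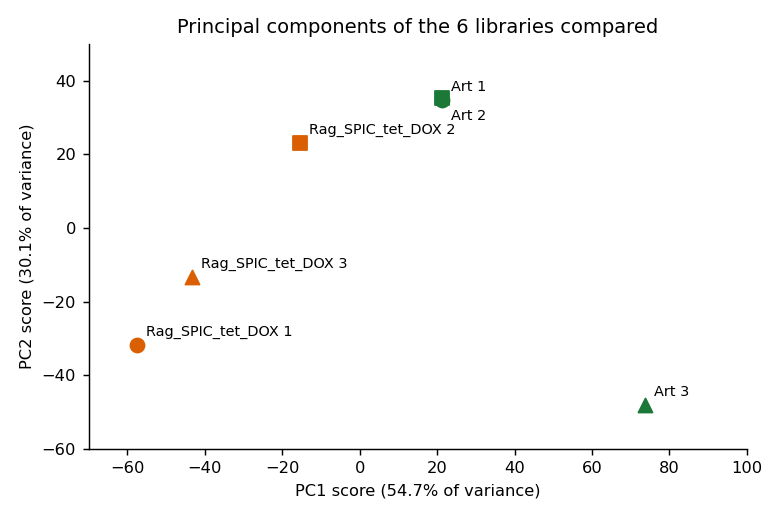
Scores of the 6 libraries on the first and second principal components of log2 CPM, which hold 54.7% and 30.1% of the variance (unitless scores; green is Art, orange is Rag_SPIC_tet_DOX, marker shapes are replicates 1 to 3). Art replicates 1 and 2 nearly coincide, Art 3 stands apart, and Rag_SPIC_tet_DOX 2 lies nearest to Art 1 and 2.

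The induced factor separated the groups. Spic (ENSMUSG00000004359) was at 3.72, 4.59 and 4.31 log2 CPM in Rag_SPIC_tet_DOX replicates 1 to 3 (305, 531 and 428 reads) and at 0.85, 0.32 and 0.16 in Art (46, 21 and 6 reads). Every Art library was thus below every induced library. Without doxycycline Spic was at 0.87, 0.18 and 1.41, and the lowest Art library lay just under that range. Spic was 13.6-fold lower in Art (log2 fold change -3.76, SE 0.32, n = 3 per group, limma adjusted p = 0.00703).

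Spib (ENSMUSG00000008193), the ETS factor of B cells that shares many of its targets with PU.1, went the other way. It was at 7.32, 7.27 and 7.30 log2 CPM in Art and at 5.54, 6.0 and 5.84 in Rag_SPIC_tet_DOX. The groups did not overlap, and Spib was 2.84-fold higher in Art (log2 fold change 1.5, SE 0.16, limma adjusted p = 0.0101). The uninduced libraries, at 7.21, 7.07 and 7.12, sat beside Art. Spi1, which encodes PU.1, did not pass, at 7.10, 6.92 and 7.73 in Art and 7.01, 7.04 and 7.04 in Rag_SPIC_tet_DOX (log2 fold change 0.22, SE 0.23, adjusted p = 0.562).

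The recombination and repair genes that define the lines were transcribed in both. Rag1 was at 11.55, 11.55 and 10.36 log2 CPM in Art and 10.13, 10.84 and 10.56 in Rag_SPIC_tet_DOX (log2 fold change 0.64, SE 0.37, limma adjusted p = 0.327). Art replicate 3 was the low library, and without it Rag1 was higher in Art by 1.04 (limma adjusted p = 0.0300). Dclre1c encodes Artemis. Its mRNA stood at 5.12, 4.99 and 2.87 in Art and at 4.50, 4.50 and 4.22 in Rag_SPIC_tet_DOX. Here too Art replicate 3 was apart, and the difference was -0.08 with it (adjusted p = 0.944) and 0.65 without it (limma adjusted p = 0.0232). Rag2 was at -0.18 (adjusted p = 0.801). The sources used here do not give the deleted exons, so these levels do not check the genotypes.

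Bclaf1, which encodes the partner of SPIC named in the study's title, was at 7.81, 7.75 and 6.41 in Art and between 7.69 and 7.76 in Rag_SPIC_tet_DOX. Its difference was -0.40 (SE 0.37, limma adjusted p = 0.527), and it was 0.05 without Art replicate 3. The kinase gene Syk (0.06) and the adaptor gene Blnk (-0.03), both of pre-B-cell receptor signalling, did not pass either. Myc, a growth-promoting transcription factor gene, showed the widest spread of the genes named by the labels and title or chosen beside them. It was at 8.06, 3.76 and 6.83 in Rag_SPIC_tet_DOX, against 3.87, 4.08 and 4.26 in Art and 5.77, 5.41 and 5.6 without doxycycline. Rag_SPIC_tet_DOX replicate 2, the library with the most Spic, had less Myc than any Art library. Myc did not pass with all 6 libraries (-2.14, SE 1.0, limma adjusted p = 0.235) and was lower in Art by 3.37 without that replicate (limma adjusted p = 0.0253).

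**Figure D2:**
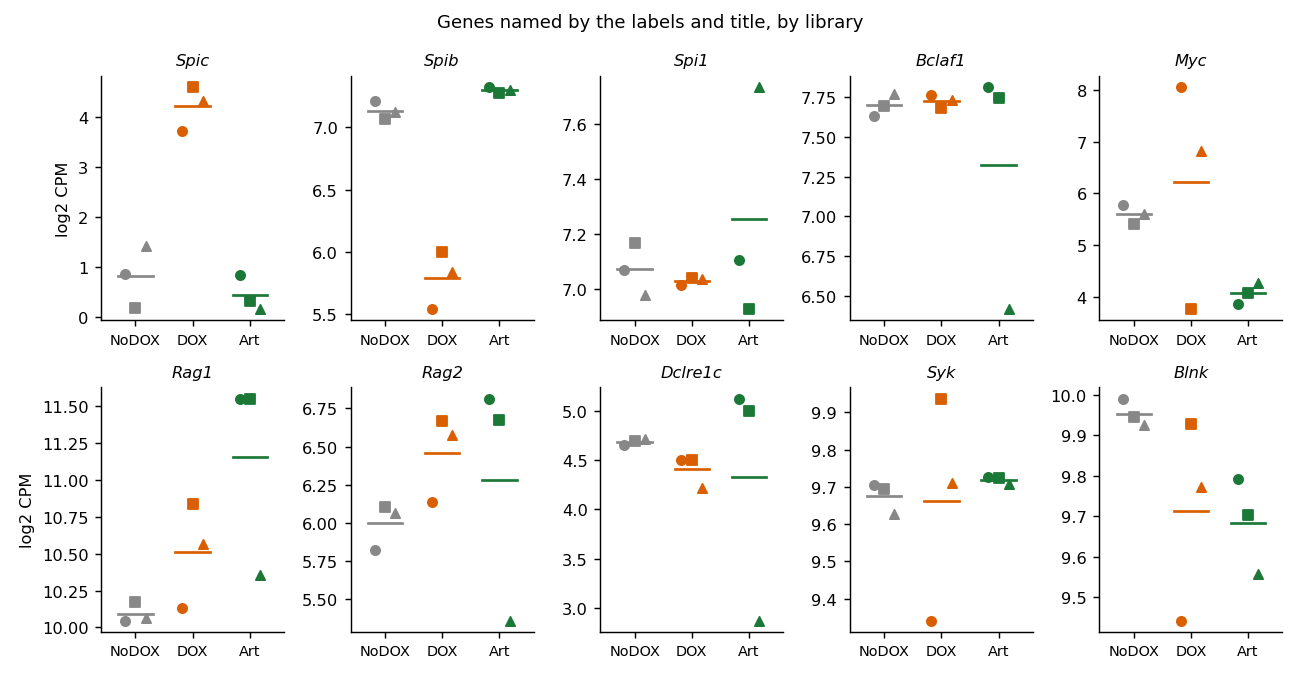
log2 CPM of 10 genes, either named by the labels and title or chosen beside them, by library (grey Rag_SPIC_tet_NoDOX, orange Rag_SPIC_tet_DOX, green Art; circle, square and triangle are replicates 1 to 3, lines are group means, and each panel has its own vertical axis). Spic and Spib separate Art from Rag_SPIC_tet_DOX in opposite directions, and Art replicate 3 is the lowest of the 6 libraries for Rag2, Dclre1c and Bclaf1.

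Of the 11551 genes tested, all listed by the authors as changed in a comparison, 579 passed at a limma adjusted p below 0.05 (5.01%). Of these, 475 were higher in Art (4.11%) and 104 were lower (0.900%), and 462 differed by at least 1 log2 unit, 386 higher and 76 lower. Counts in the gene lists below, where all 6 libraries were used, are to be read beside these 4.11% and 0.900%. The groups did not overlap for any of the 579, as for 4458 genes in all (38.6%), 2362 higher (20.4%) and 2096 lower (18.1%). The count depended on single libraries. It was 2495 without Art replicate 3 and 47 without Rag_SPIC_tet_DOX replicate 1. In limma it was 0 without Rag_SPIC_tet_DOX replicate 3, Art replicate 1 or Art replicate 2, although 1620, 2454 and 2410 genes had an unadjusted p below 0.05. No call below therefore holds in those 3 fits, and 46 of the 53 named genes that passed did not pass without Rag_SPIC_tet_DOX replicate 1. All 579 genes had the same sign in each of the 6 fits that leave out 1 library. Of the named genes, 12 lost their call without Rag_SPIC_tet_DOX replicate 2 (adjusted p of 0.0534 to 0.0860), namely Dtl, Ube2c, mt-Nd4, Ncaph, Tnfaip3, Erg, Cd22, Fcgr3, Hist1h2bg, Uqcrc2, Tcf7 and Itga2b.

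The balance of directions also moved with the libraries. The higher genes made up 82.0% of the changed genes with all 6 libraries, 59.6% without Art replicate 3 and 54.5% without Rag_SPIC_tet_DOX replicate 2. With both of these left out, 5448 genes passed (47.2%), 2664 higher (23.1%) and 2784 lower (24.1%), and they included all 579. These 2, called the outlying libraries below, were singled out by their values in these same data. Leaving them out lowers the scatter and keeps n = 2 per group. Counts from this fit are therefore a description and give no separate support. The median GC content was 53.7% in the higher genes, 48.6% in the lower genes and 49.9% in all genes. The Spearman correlation of the log2 fold change with GC content across genes was 0.38 with all 6 libraries and 0.07 without Art replicate 3. The part of GC content in the excess of higher genes was not tested.

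**Figure D3:**
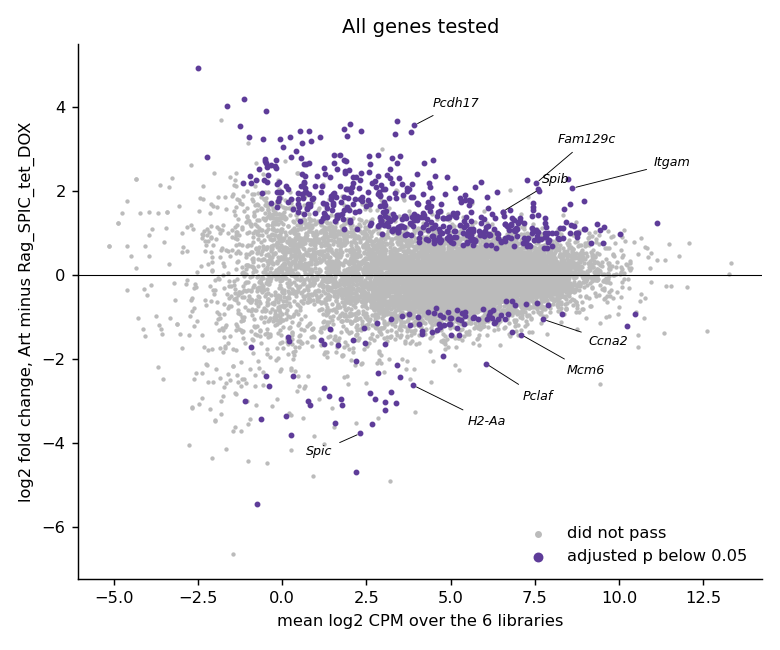
log2 fold change (Art minus Rag_SPIC_tet_DOX) against mean log2 CPM over the 6 libraries for 11551 genes, with the 579 genes at an adjusted p below 0.05 in purple and the rest in grey. More purple points lie above 0 (475) than below it (104).

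The 10 highest log2 fold changes among changed genes above the median level were those of Pde4c (2.29), Mid1 (2.26), Dennd3 (2.21), Fam129c (2.18), Gbp4 (2.08), Rasal1 (2.07), Itgam (2.06), Abcg1 (2.04), Carmil2 (2.0) and Hip1r (1.98). Pde4c encodes a cyclic-AMP phosphodiesterase, Mid1 a microtubule-bound ubiquitin ligase, Rasal1 a Ras GTPase-activating protein, Abcg1 a cholesterol exporter and Hip1r an actin-binding protein of endocytosis. Pde4c was at 9.40, 9.40 and 10.09 in Art and at 7.12, 7.66 and 7.25 in Rag_SPIC_tet_DOX. In Pde4c, as in Mid1, Dennd3, Rasal1, Abcg1 and Hip1r, Art replicate 3 was the highest of the Art libraries, and the differences without it were 1.81 to 2.06.

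Carmil2, which regulates actin and CD28 signalling in lymphocytes, was among the tightest. It was at 8.65, 8.62 and 8.58 in Art and at 6.63, 6.66 and 6.55 in Rag_SPIC_tet_DOX, 4.0-fold higher in Art (SE 0.13 on the log2 scale, limma adjusted p = 0.00703). The uninduced libraries, at 7.05, 6.79 and 6.90, lay near the induced ones. Fam129c, known as BCNP1 and expressed in B cells, was at 8.55, 8.57 and 8.78 in Art and 6.26, 6.69 and 6.41 in Rag_SPIC_tet_DOX (SE 0.17, adjusted p = 0.00703). Its uninduced level of 7.88, 7.65 and 7.73 lay between the groups.

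**Figure D4:**
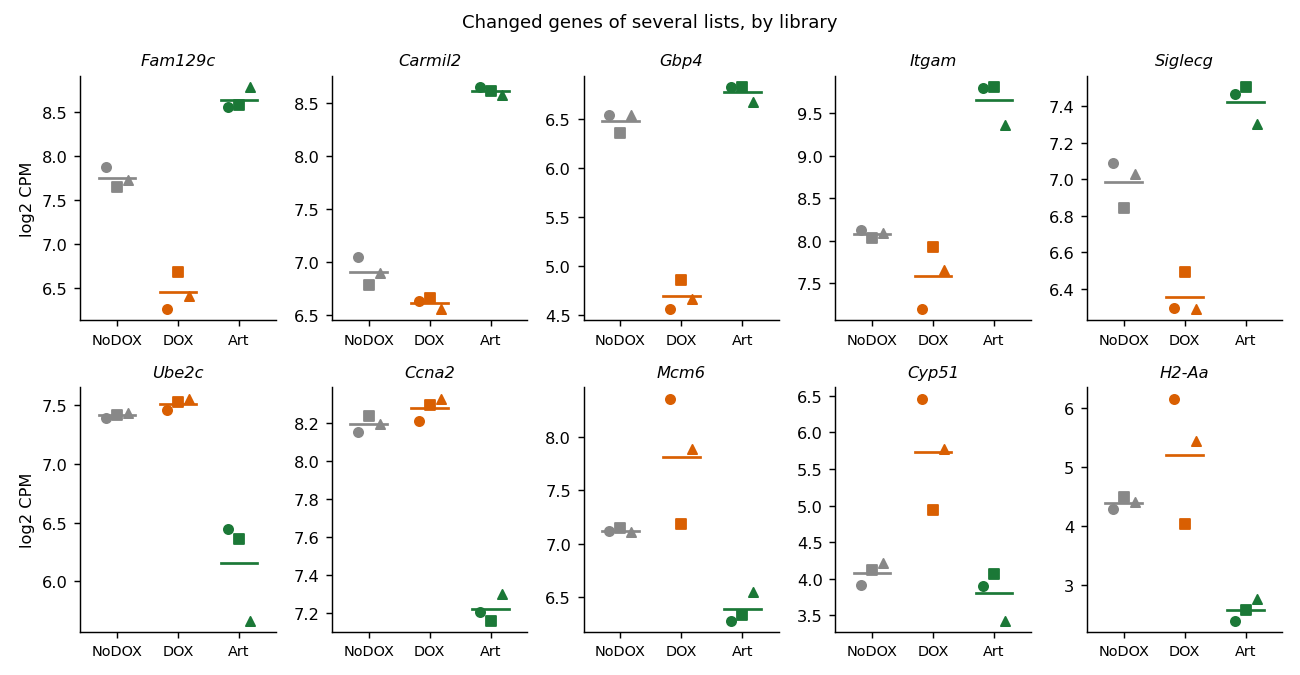
log2 CPM of 10 changed genes by library (colours and markers: grey Rag_SPIC_tet_NoDOX, orange Rag_SPIC_tet_DOX, green Art; circle, square, triangle for replicates 1 to 3; lines are group means; vertical axes differ between panels). No Art library overlaps a Rag_SPIC_tet_DOX library in any panel, and the uninduced libraries lie at different places between or beside the groups.

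Genes of the PU.1 and SPIB target list did not move as a block. Of 28 measured, 3 were higher in Art, 1 was lower and 24 did not pass, and the median log2 fold change was -0.04, equal to that of all genes tested. Without Art replicate 3 and Rag_SPIC_tet_DOX replicate 2, 6 were higher and 8 lower, where 23.1% and 24.1% of all genes were. Itgam (ENSMUSG00000030786), the CD11b integrin chain, was at 9.79, 9.80 and 9.37 in Art and 7.19, 7.92 and 7.65 in Rag_SPIC_tet_DOX, 4.18-fold higher in Art (SE 0.23 on the log2 scale, limma adjusted p = 0.0102). Siglecg, an inhibitory receptor of B cells, was at 7.47, 7.50 and 7.30 against 6.29, 6.49 and 6.29 (log2 fold change 1.07, SE 0.14, limma adjusted p = 0.0148). Cd22, a related inhibitory receptor, was at 8.02, 7.95 and 8.66 against 7.10, 6.29 and 6.63 (1.54, SE 0.28, limma adjusted p = 0.0319). The member that was lower, Fcgr3, an activating Fc receptor, was at 4.41, 4.49 and 4.58 in Art and 5.37, 5.58 and 5.14 in Rag_SPIC_tet_DOX (-0.87, SE 0.18, limma adjusted p = 0.0431).

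The promoters of Itgam and Siglecg are shown because these members of the PU.1 and SPIB list were higher in Art and hold the purine-rich core GAGGAA of PU.1 sites. Each sequence covers 250 bases before and 50 after the annotated start in RefSeq (GRCm38.p6), in the gene's direction, and capitals mark the core, which reads TTCCTC where it lies on the opposite strand. The Itgam window is chr7:128062390-128062689 (plus strand, 3 matches) and the Siglecg window is that of its upstream start, chr7:43407989-43408288 (plus strand, 2 matches). The window of the second annotated Siglecg start, chr7:43408030-43408329, overlaps it and holds 0 matches.
Itgam: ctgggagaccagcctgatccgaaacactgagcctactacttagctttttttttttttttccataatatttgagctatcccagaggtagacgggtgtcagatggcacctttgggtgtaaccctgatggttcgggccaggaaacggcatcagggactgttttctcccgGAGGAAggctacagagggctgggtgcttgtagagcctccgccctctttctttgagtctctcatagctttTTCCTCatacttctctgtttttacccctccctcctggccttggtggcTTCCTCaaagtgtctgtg
Siglecg: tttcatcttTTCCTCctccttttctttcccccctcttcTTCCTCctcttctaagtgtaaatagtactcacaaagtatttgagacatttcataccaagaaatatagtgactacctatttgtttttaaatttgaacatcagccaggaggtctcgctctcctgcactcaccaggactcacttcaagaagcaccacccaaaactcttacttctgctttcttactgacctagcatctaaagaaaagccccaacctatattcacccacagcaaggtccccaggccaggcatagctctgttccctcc
The core is common, and its presence is a description of the letters, not a site. It occurred on either strand in 28.3% of 32851 promoters of this length. Counted by gene, with a match at any annotated start, it occurred in 30.5% of the 9099 tested genes that had promoters. The share by gene was 31.8% of 362 for genes higher in Art and 35.9% of 78 for genes lower in Art. Shares by gene and by promoter are not counted alike. The windows of Spic, Spib and Cd22 held 0 matches.

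Among the 18 measured ETS factors, Spib and Erg were higher in Art, Spic was lower and 15 did not pass (median -0.07). For this list and the next 2, the shares over all genes tested were 4.11% higher and 0.900% lower. Erg, a factor of early blood cells, was at 8.72, 8.63 and 9.12 in Art and 7.39, 7.85 and 7.86 in Rag_SPIC_tet_DOX (1.12, SE 0.21, limma adjusted p = 0.0333). In the pre-B-cell receptor list 2 of 33 were higher and 0 lower (median 0.15), and Cd22 was among the former. Of 27 B-lineage and recombination genes, 2 were higher in Art and 0 lower (median 0.09), Pou2f2 among them. Pou2f2, the octamer-binding factor OCT2, was at 7.25, 7.16 and 7.23 in Art and 6.34, 5.71 and 5.93 in Rag_SPIC_tet_DOX (1.22, SE 0.19, limma adjusted p = 0.0230).

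Adhesion genes gave a similar count. Of 19 integrin and adhesion genes, 3 were higher in Art, 0 lower and 16 did not pass (median 0.25). Over all genes tested 4.11% were higher and 0.900% lower. With the 2 outlying libraries left out 11 were higher and 4 lower, where 23.1% and 24.1% of all genes were. Beside Itgam, the genes that passed with all 6 libraries were Itgax and S1pr1. Itgax encodes the CD11c chain and S1pr1 the receptor for sphingosine-1-phosphate that guides cells out of tissues. Itgax was at 2.38, 2.26 and 2.44 in Art and 0.08, 1.16 and 0.68 in Rag_SPIC_tet_DOX, with uninduced libraries at 2.01, 2.16 and 2.19 (1.72, SE 0.33, limma adjusted p = 0.0370). S1pr1 was also the only one of 22 FOXO and quiescence genes to pass (0.89, SE 0.18, limma adjusted p = 0.0437).

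The RAG-break list holds genes known to respond to these breaks, and its share of changed genes was near that of all genes (5.01%). Of 20 measured, 1 was higher in Art, 0 lower and 19 did not pass (median 0.34), and without Art replicate 3 and Rag_SPIC_tet_DOX replicate 2, 8 were higher and 6 lower, where 47.2% of all genes passed. The one that passed was Il12a, a subunit of the cytokines IL-12 and IL-35, at 6.98, 6.92 and 6.74 in Art and 5.60, 6.21 and 5.92 in Rag_SPIC_tet_DOX (0.97, SE 0.19, limma adjusted p = 0.0400). Cd40, a costimulatory receptor, was at 4.09, 4.24 and 5.21 against 3.39, 2.09 and 2.73 and did not pass (1.78, SE 0.43, adjusted p = 0.0634). NF-kB carries part of the break signal in pre-B cells, and of 26 of its subunits and targets 2 were higher, 0 lower and 24 did not pass (median 0.34). The groups did not overlap for 12 of the 26, each higher in Art, where 20.4% of all genes did so in that direction.

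Ebi3, which pairs with Il12a in IL-35, had the larger change of the 2 NF-kB list members that passed. It was at 4.75, 4.69 and 5.37 in Art, 3.02, 2.38 and 2.94 in Rag_SPIC_tet_DOX and 3.17, 3.01 and 3.32 in the uninduced cells, 4.47-fold higher in Art than in the induced cells (SE 0.28 on the log2 scale, limma adjusted p = 0.0134). Tnfaip3, which encodes the NF-kB inhibitor A20, was at 6.94, 6.89 and 6.79 in Art and 5.84, 6.26 and 6.18 in Rag_SPIC_tet_DOX (0.78, SE 0.16, limma adjusted p = 0.0471). None of the 28 measured p53 targets passed in limma (median -0.04). Without the 2 outlying libraries 7 were higher and 4 lower, where 23.1% and 24.1% of all genes were. With all 6 libraries the smallest p-values of this list were those of Plk2 and Rrm2b. Plk2, a polo-like kinase gene, was at 1.55 (limma adjusted p = 0.0586). Rrm2b, a ribonucleotide reductase subunit gene, was at 0.59 (limma adjusted p = 0.127). In the end-joining and break-sensing list, 1 of 25 was lower and 0 higher (median -0.23). The list mean was 5.69, 5.71 and 4.92 in Art and 5.75 to 5.77 in Rag_SPIC_tet_DOX. Without Art replicate 3, 6 were higher and 4 lower (median -0.12), where 1486 and 1009 of all 11551 genes were. Without the 2 outlying libraries 7 were higher and 9 lower (median -0.08), where 23.1% and 24.1% of all genes were. The gene that passed with all 6 libraries was Tdp1, which trims blocked DNA ends. It was at 4.39, 4.49 and 4.51 in Art and 5.75, 5.18 and 5.56 in Rag_SPIC_tet_DOX (-1.03, SE 0.19, limma adjusted p = 0.0336). Xrcc6, the gene of the end-binding protein Ku70, was at 0.72 (adjusted p = 0.0523).

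Interferon-response genes were higher in Art in 4 of 27 measured, lower in 0, and 23 did not pass (median 0.38). The list mean was nearly level within each group, at 4.17, 4.22 and 4.16 log2 CPM in Art and 3.73, 3.68 and 3.73 in Rag_SPIC_tet_DOX, with uninduced libraries between 4.06 and 4.09. The groups did not overlap for 15 of the 27, each higher in Art, where 20.4% of all genes did so in that direction. Without the 2 outlying libraries 14 were higher and 1 lower, where 23.1% and 24.1% of all genes were. Gbp4 (ENSMUSG00000079363), an interferon-induced GTPase gene, was at 6.82, 6.82 and 6.67 in Art and 4.55, 4.85 and 4.66 in Rag_SPIC_tet_DOX, 4.23-fold higher in Art (SE 0.15 on the log2 scale, limma adjusted p = 0.00703). Its uninduced level of 6.53, 6.35 and 6.54 was close to Art. Gbp9, a related GTPase gene, was higher by 1.23 (SE 0.22, limma adjusted p = 0.0310). Ddx58, the RNA sensor RIG-I, was higher by 0.88 (SE 0.15, limma adjusted p = 0.0250). Oas2, a sensor of double-stranded RNA, was higher by 1.73 (SE 0.29, limma adjusted p = 0.0264). Its level was low, with 52, 33 and 12 reads in Art and 12, 16 and 12 in Rag_SPIC_tet_DOX.

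Among 18 antigen-presentation genes, H2-Aa, a chain of the class II molecule, was the only one to pass (list median 0.29). It was at 2.40, 2.59 and 2.76 in Art, 6.16, 4.03 and 5.43 in Rag_SPIC_tet_DOX and 4.30, 4.50 and 4.40 in the uninduced cells, 6.16-fold lower in Art than in the induced cells (SE 0.51 on the log2 scale, limma adjusted p = 0.0395). Rag_SPIC_tet_DOX replicate 2 lay below the uninduced libraries and the other induced libraries above them. H2-Ob, a class II chaperone chain, did not pass (0.94, adjusted p = 0.0578).

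Mitotic genes had the highest share of members whose groups did not overlap among the 32 lists. Of 35 measured, 9 were lower in Art, 0 higher and 26 did not pass (median -0.96, against -0.04 for all genes tested). The groups did not overlap for 33 of them, 32 lower and 1 higher, where 18.1% and 20.4% of all genes did so. Without Art replicate 3 and Rag_SPIC_tet_DOX replicate 2, 34 were lower and 1 higher, where 24.1% and 23.1% of all genes were. The list mean was 6.43, 6.45 and 5.97 log2 CPM in Art, 7.15, 7.10 and 7.18 in Rag_SPIC_tet_DOX and between 7.24 and 7.27 in the uninduced cells.

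Ccna2, which encodes cyclin A2, was at 7.21, 7.16 and 7.30 in Art and 8.21, 8.30 and 8.33 in Rag_SPIC_tet_DOX, 2.08-fold lower in Art (SE 0.13 on the log2 scale, limma adjusted p = 0.0120). Cdca3, a trigger of mitotic entry, was at 5.75, 5.69 and 5.72 against 6.85, 6.72 and 6.65, and Aurka, the Aurora A kinase gene, at 5.22, 5.19 and 5.16 against 6.28, 6.12 and 6.15. Ube2c, the ubiquitin-conjugating enzyme of the anaphase-promoting complex, was at 6.45, 6.36 and 5.66 against 7.46, 7.53 and 7.56. These 4 genes were 1.99-fold to 2.56-fold lower in Art, and Cdca8, a subunit of the chromosomal passenger complex, was 2.18-fold lower (SE 0.15, limma adjusted p = 0.0159). In bulk RNA, fewer cells in mitosis and less of these mRNAs per cell cannot be told apart.

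Replication genes had a similar median and a wider spread in the induced cells. Of 35 measured, 3 were lower in Art, 0 higher and 32 did not pass (median -0.94). Without the 2 outlying libraries 30 were lower and 0 higher, where 24.1% and 23.1% of all genes were. The list mean was 4.98 to 5.09 log2 CPM in Art, 6.29, 5.47 and 5.91 in Rag_SPIC_tet_DOX replicates 1 to 3 and 5.58 in each uninduced library. Rag_SPIC_tet_DOX replicate 2 was thus below the uninduced cells while the other induced libraries were above. The helicase subunit gene Mcm6 was at 6.28, 6.34 and 6.55 in Art and 8.36, 7.19 and 7.88 in Rag_SPIC_tet_DOX (-1.42, SE 0.30, limma adjusted p = 0.0469). Mcm10, an initiation factor gene, was at -1.17 (SE 0.24, limma adjusted p = 0.0435), and Gins1, a subunit of the replicative helicase, at -1.63 (SE 0.29, limma adjusted p = 0.0297).

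The 10 lowest changed genes above the median level included 6 that were not in these lists. Pclaf, a partner of the sliding clamp PCNA, was at 5.33, 5.46 and 4.22 in Art and 7.62, 6.59 and 7.14 in Rag_SPIC_tet_DOX (-2.11, SE 0.40, limma adjusted p = 0.0367). Dtl (-1.41), which targets replication factors for degradation, Pbk (-1.25), a mitotic kinase gene, Ncaph (-1.14), a condensin subunit gene, Timeless (-1.08), a fork-protection gene, and mt-Nd4 (-1.21), a mitochondrially encoded subunit gene of complex I, also passed. Of 12 G1 cyclins and inhibitors none passed in limma (median -0.42). Cdkn2a, the gene of p16 and p19ARF, was at 7.18, 7.10 and 9.08 in Art and 5.91, 5.64 and 5.72 in Rag_SPIC_tet_DOX (2.03, SE 0.52, adjusted p = 0.0722). Art replicate 3 was its high library, and without it the difference was 1.39 (limma adjusted p = 0.00364). Cdkn2c, a related inhibitor gene, was at -0.58 (adjusted p = 0.0984). Among 15 replication histones, whose near-identical copies make counts uncertain, Hist1h2bg was higher in Art (1.44, SE 0.30, limma adjusted p = 0.0469), and the variant gene H2afx, whose product marks breaks when phosphorylated, was at -0.89 (adjusted p = 0.0783). Hist1h2bg was highest in the uninduced cells, at 2.48, 2.06 and 2.24 against 1.51, 1.16 and 1.41 in Art.

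Growth and metabolic lists had medians below 0, with wide spread among the induced libraries. Of 29 MYC network genes 0 passed in limma (median -0.55). Without Rag_SPIC_tet_DOX replicate 2, 10 were lower and 0 higher, where 273 and 327 of all 11551 genes were. With Art replicate 3 left out as well, 21 were lower and 1 higher, where 24.1% and 23.1% of all genes were. The mean of the MYC list was 5.48, 5.51 and 5.64 in Art and 6.99, 5.60 and 6.47 in Rag_SPIC_tet_DOX. Replicate 2 of the induced cells thus lay among the Art libraries. Npm1 (-1.35, adjusted p = 0.0596), a nucleolar chaperone gene, and Mthfd2 (-1.70, adjusted p = 0.0634), an enzyme of mitochondrial folate metabolism, came nearest to passing. Of 25 glycolysis and hypoxia genes 0 passed (median -0.61), and their mean in Rag_SPIC_tet_DOX was 7.29, 5.33 and 6.61, around the Art range of 5.74 to 6.12. Pgk1, a glycolytic kinase gene, was at 4.70, 2.93 and 4.08 in Rag_SPIC_tet_DOX and 2.43, 2.61 and 2.73 in Art (-1.31, adjusted p = 0.132), and Bnip3, a hypoxia-induced mitophagy gene, was at -0.84 (adjusted p = 0.185).

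Cholesterol-synthesis genes held 2 of 23 that were lower and 0 higher (median -0.60). Without the 2 outlying libraries 20 were lower and 1 higher, where 24.1% and 23.1% of all genes were. The sterol demethylase gene Cyp51 was at 3.90, 4.07 and 3.43 against 6.46, 4.94 and 5.78, with the uninduced libraries at 3.91, 4.12 and 4.22 (-1.93, SE 0.40, limma adjusted p = 0.0444). For Cyp51 the uninduced cells were thus near the Art level. In the amino-acid stress response 1 of 27 was lower (median -0.36), the serine-synthesis gene Psat1, at 4.33, 4.30 and 4.24 against 6.26, 5.24 and 5.64 (-1.43, SE 0.27, limma adjusted p = 0.0363). Vldlr, a lipoprotein receptor gene of that response, was at 0.09, 0.51 and 0.71 in Art and 5.31, 2.17 and 4.39 in Rag_SPIC_tet_DOX (-3.52, SE 0.76, adjusted p = 0.0504).

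**Figure D5:**
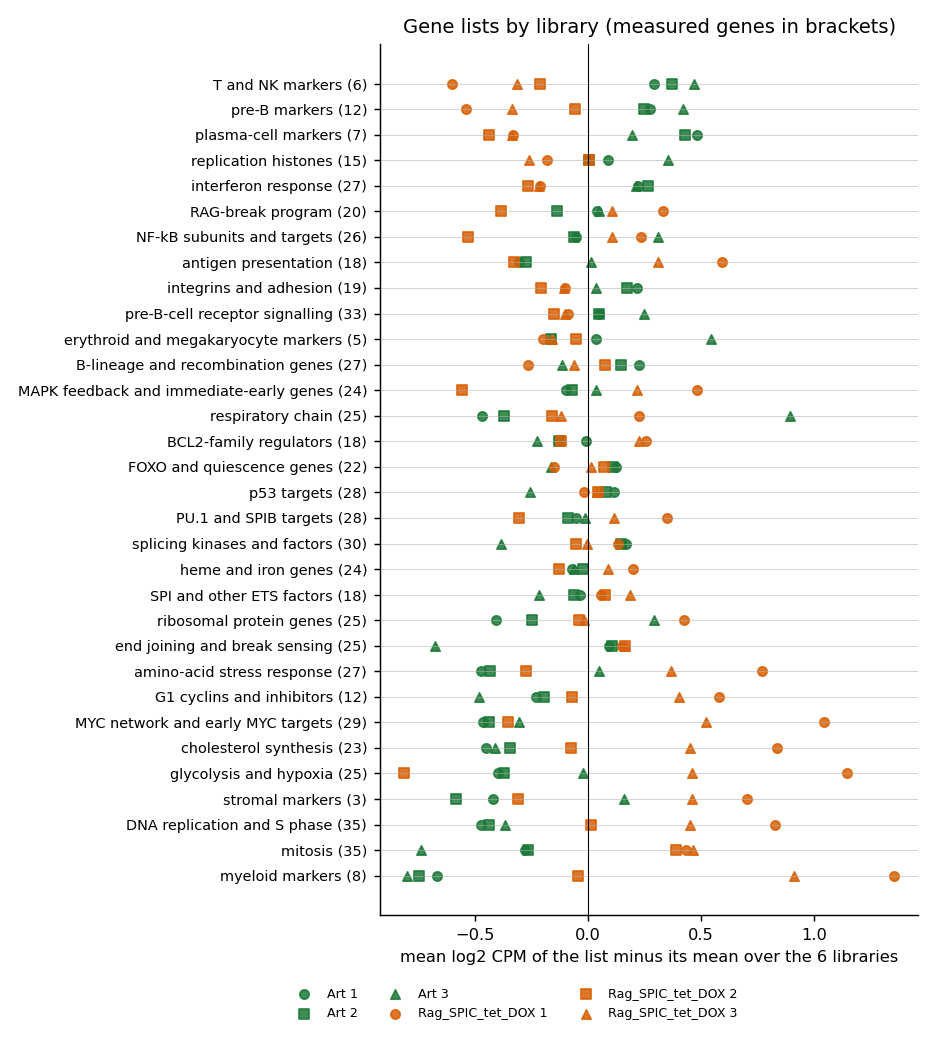
Mean log2 CPM of each of 32 gene lists in each library, minus the mean over the 6 libraries (green Art, orange Rag_SPIC_tet_DOX; circle, square, triangle for replicates 1 to 3), ordered by the median log2 fold change of the list. The mitosis and interferon lists keep the groups apart with little spread in Rag_SPIC_tet_DOX, whereas in MYC, glycolysis and cholesterol lists the Rag_SPIC_tet_DOX libraries spread over a range wider than that of Art.

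Other lists held few or no changed genes. SPIC is best known for its part in heme and iron handling by macrophages, and of 24 heme and iron genes 0 passed in limma (median -0.06, 3 higher and 9 lower without the 2 outlying libraries). The iron exporter gene Slc40a1 was at 0.33, 0.45 and 0.37 in Art, -0.89, -0.71 and -0.48 in Rag_SPIC_tet_DOX and 1.59, 1.02 and 1.32 in the uninduced cells (1.07, SE 0.30, adjusted p = 0.0893), and Hmox2, a heme oxygenase gene, was at -0.54 (adjusted p = 0.187). Of 24 MAPK feedback and immediate-early genes 0 passed (median 0.07), with the phosphatase gene Dusp2 at 0.97 (adjusted p = 0.0744) and the nuclear receptor gene Nr4a1 at 0.93 (adjusted p = 0.0986). Of 18 BCL2-family regulators 0 passed (median 0.05), with Bcl2 itself, a survival factor gene, at 0.79 (adjusted p = 0.103). Of 30 splicing kinases and factors 0 passed (median -0.06), with the kinase gene Clk2 at 0.82 (adjusted p = 0.0802) and the splicing factor gene Tra2a at 0.54 (adjusted p = 0.0835). In each of these 4 lists limma called members once the 2 outlying libraries were left out, 11 to 15 in each and in both directions, where 47.2% of all genes passed.

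Ribosomal protein genes had 2 of 25 lower and 0 higher (median -0.12), and respiratory-chain genes 1 of 25 lower and 0 higher (median 0.06). The former were Rpl4 (-0.92, SE 0.16, limma adjusted p = 0.0284) and Rpl3 (-3.21, SE 0.62, limma adjusted p = 0.0381), whose many pseudogene copies make its value uncertain. The latter was Uqcrc2 (-0.62, SE 0.13, limma adjusted p = 0.0492), a core subunit of complex III, while Cox6b1, a subunit of complex IV, was at -0.47 (adjusted p = 0.171). In both lists Art replicate 3 was the highest Art library, with a respiratory list mean of 7.48 against 6.11 and 6.21 in Art replicates 1 and 2. Without it the median was -0.35 for ribosomal and -0.39 for respiratory genes, against -0.01 for all genes. In that fit 4 and 6 members were lower and 0 higher, where 1009 of all 11551 genes were lower and 1486 higher. Without the 2 outlying libraries 10 ribosomal and 15 respiratory genes were lower and 0 higher, where 24.1% and 23.1% of all genes were.

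Among markers of other cell types, the myeloid, T-cell and NK, and erythroid and megakaryocyte lists had means below the median level of 5.14 log2 CPM. The plasma-cell and stromal lists had means of 5.72 to 6.01 and 5.04 to 5.78 in Art. The part of these markers in the results above was not tested. Of 20 myeloid markers 8 were in the tables, 1 was lower in Art (Fcgr3) and 0 higher (median -1.54). Their summed level was 40.8 to 48.9 CPM in Art, 77.4 to 107 in Rag_SPIC_tet_DOX and 73.5 to 83.1 in the uninduced cells. Tyrobp, a signalling adaptor, was at 1.05, 1.30 and 0.85 in Art and 2.84, 2.03 and 2.37 in Rag_SPIC_tet_DOX (-1.35, adjusted p = 0.0524). Lyz2, the lysozyme gene, was at -0.73 (adjusted p = 0.103). The defining myeloid genes Mpo, Elane, S100a8 and S100a9 are not among the genes tested.

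T-cell and NK markers went the other way. Of 18 listed 6 were measured, and 3 were higher in Art and 0 lower (median 0.89), where 4.11% and 0.900% of all genes tested were. Their summed level was 192 to 211 CPM in Art and 103 to 130 in Rag_SPIC_tet_DOX. Lck, a Src-family kinase gene, was at 6.41, 6.32 and 6.36 in Art and 4.81, 4.87 and 4.94 in Rag_SPIC_tet_DOX, 2.81-fold higher in Art (SE 0.14 on the log2 scale, limma adjusted p = 0.00882). Lat, an adaptor that is also used by pre-B cells, was at 4.40, 4.35 and 5.37 against 2.41, 2.99 and 2.71 (log2 fold change 2.0, SE 0.33, limma adjusted p = 0.0249), and the transcription factor gene Tcf7, higher by 0.88 (SE 0.16, limma adjusted p = 0.0317), at 5.41, 5.40 and 5.20 against 4.50, 4.32 and 4.54. Thy1 did not pass (-0.72, adjusted p = 0.221). The T-cell receptor complex genes Cd3d, Cd3e and Cd3g are not among the genes tested. Among 5 measured erythroid and megakaryocyte markers Itga2b was higher in Art (1.17, SE 0.21, limma adjusted p = 0.0329), with the list at 38.4 to 45.3 CPM in Art and 26.6 to 29.2 in Rag_SPIC_tet_DOX. None of 7 plasma-cell or 3 stromal markers passed in limma, and Mzb1, a chaperone gene of plasma cells, came nearest (0.80, adjusted p = 0.0585). Their sums were 643 to 919 and 503 to 1022 CPM in Art against 468 to 553 and 828 to 965 in Rag_SPIC_tet_DOX, and the plasma-cell groups did not overlap.

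The uninduced Rag_SPIC_tet_NoDOX libraries were placed between the groups for most of the changed genes. They took no part in the test of Art against Rag_SPIC_tet_DOX, but the authors' comparisons that set which genes were deposited used them, so the shares are a description only. Of the 475 genes higher in Art, the uninduced mean lay between the means of Rag_SPIC_tet_DOX and Art for 437 (92.0%), at a median 42.6% of the way from Rag_SPIC_tet_DOX to Art. Of the 104 lower genes it lay between for 85 (81.7%), at a median 22.5% of the way. Over all genes tested the share was 50.1%. Gbp4, Spib and Itgax were at the Art end, and Carmil2, Itgam, Ebi3 and Lck near the Rag_SPIC_tet_DOX end. Rag_SPIC_tet_DOX replicate 2 was the induced library nearest to Art for 295 of the 475 higher genes, 76 of the 104 lower genes and 5423 of all 11551. Art replicate 3 was the Art library farthest from the induced cells for 319, 56 and 7885 of them.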

How the data were processed

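RNA-seq of paired ends gave 15 libraries, per the series text. The submitters' processing notes list mm9 as the build and, as tools, featureCounts 1.4.5 with Subread, limma and edgeR, with no role for each. The authors deposited 4 tables of log2 CPM values, each listing genes that passed their own test (highest adjusted p 0.0499). With the lowest value of each library taken as 0 reads, subtracting the offset of 0.5 gave whole reads within 0.05 for all values under 1000 reads. The union held 11551 genes, each thus changed in at least 1 of the authors' comparisons, after 152 duplicate rows were merged. The deposited fold changes and p-values were not used beyond this choice of genes. Some of the authors' comparisons held these same Art and Rag_SPIC_tet_DOX libraries. The adjusted p-values and the shares over all genes tested therefore hold for this selected set only. The Art replicate 3 column was assigned although its header and the sample's label are 1 letter apart.

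A two-sided test with a mean-variance trend was run on the 6 libraries in limma 3.58.1 (R 4.3.3), with Benjamini-Hochberg adjustment over all 11551 genes and a threshold of 0.05. Genes named are those of the labels and title with others chosen beside them, such as Syk, Blnk and Myc. The 10 highest and 10 lowest changes above the median level of 5.14 log2 CPM with groups that do not overlap are also named. So are the 8 widest gaps in each direction. Each of 32 lists gave up to 4 changed genes, or the 2 with the smallest p where fewer than 2 passed. Members and lists were chosen with earlier results of these data known. RefSeq promoters were searched for GAGGAA on both strands. Alternatives were other weights, scalings, offsets, filters, a replicate block and libraries left out. A few genes the rule names are not reported here.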

Additional observations from a re-analysis of the deposited data

How the results depend on the processing

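All 579 changed genes kept their sign in the 6 fits that leave out 1 library. Their count was 8837 with array weights (49.4% higher in Art), which put nearly all of the doxycycline group's weight on replicate 3 (97.7 against 0.258 and 0.267), 7694 with voom quality weights (49.7%), 4011 with all 15 libraries in one fit (51.0%) and 5448 with Art replicate 3 and Rag_SPIC_tet_DOX replicate 2 both left out (48.9%). With 1 library left out it ranged from 0 to 2495. With the replicate block it was 185 (156 higher, 29 lower), but the sample labels do not say whether replicate numbers pair the samples. Same-numbered libraries deviated from their group means with correlations of -0.141, 0.113 and 0.0739. These cannot settle it, with Art replicate 3 so far from the other Art libraries. The count stayed within 1.5 times under the 5 other settings (445 to 690). The median log2 fold change of all genes was -0.04 and became 0.06 with libraries centred on their medians. None of the 53 named genes that passed reversed, but 7 that did not pass did, and the cause was not tested. With array weights Bclaf1 was at 0.048, Rag2 at 0.18, Dclre1c at 0.84 and Tal1 at -0.082. With voom quality weights they were at 0.040, 0.19, 0.81 and -0.060, and Spi1 was at -0.0077. With Art replicate 3 and Rag_SPIC_tet_DOX replicate 2 both out, Bclaf1 was at 0.032, Spi1 at -0.011, Rag2 at 0.39, Dclre1c at 0.70, Blnk at 0.14 and Tal1 at -0.20. Over the fits without 1 library the ranges were -0.65 to 0.053 for Bclaf1, -0.015 to 0.39 for Spi1, -0.44 to 0.29 for Rag2, -0.47 to 0.65 for Dclre1c, -0.10 to 0.19 for Syk, -0.17 to 0.077 for Blnk and -0.28 to 0.19 for Tal1. Centred libraries gave 0.024 for Dclre1c and 0.073 for Blnk, and quantile normalization 0.040 for Dclre1c and -0.11 for Syk. The small size of Art replicate 3 (5.81 M) limits what low genes can show, with 145 genes at 0 reads there.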

Other observations

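Several of the widest differences lay in genes of low level, chosen here after their values were seen. Wnt10a and Wnt10b, which encode secreted Wnt ligands, were higher in Art. Wnt10b was at 5.31, 5.41 and 5.86 log2 CPM in Art (1024, 734 and 337 reads), 1.66, 2.48 and 2.22 in Rag_SPIC_tet_DOX and 3.83, 3.82 and 3.81 in the uninduced cells (log2 fold change 3.40, SE 0.28, limma adjusted p = 0.00703). Wnt10a was at 3.61, 3.52 and 4.34 in Art and 0.35, 0.15 and 0.18 in Rag_SPIC_tet_DOX. Pcdh17, a protocadherin gene, was at 5.76, 5.79 and 5.57 in Art. It was at 2.04, 2.28 and 2.12 with doxycycline and 2.07, 2.49 and 1.90 without, so among these groups it was high in Art only. The Artemis-deficient libraries labelled shBCLAF1 had a mean of 1.07, so the high level was not shared by all Artemis-deficient cells. Il9r, a cytokine receptor gene, was higher in Art by 2.77 (SE 0.20), and Dtx1, which regulates Notch signalling, by 2.82 (SE 0.36). In the other direction, Ccl22, a chemokine gene, was at 0.54, 0.82 and 1.32 in Art, 4.81, 4.0 and 4.50 in Rag_SPIC_tet_DOX and 3.64, 3.76 and 3.55 in the uninduced cells. Ccr1, a chemokine receptor gene, had 12, 4 and 1 reads in Art and 187, 60 and 88 in Rag_SPIC_tet_DOX.

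Some genes that did not pass differed more among the induced libraries than between the groups, also chosen after their values were seen. Lta, the lymphotoxin gene, was at 8.83, 0.51 and 7.57 log2 CPM in Rag_SPIC_tet_DOX replicates 1 to 3 and at 0.94, 0.91 and 0.37 in Art (log2 fold change -4.90, limma adjusted p = 0.191). Tnf was at 5.10, -1.22 and 3.83 against -0.27, -0.46 and -0.37, and the ETS factor gene Etv5 at 6.24, 1.35 and 4.97 against 1.49, 2.13 and 2.02. In each, replicate 2 was near the Art level.

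The 7 mitochondrially encoded genes measured were all lower in Art, with log2 fold changes of -2.60 to -1.21 and groups that did not overlap, and 1 of them, mt-Nd4, passed in limma (adjusted p = 0.0498). Art replicate 3 was lowest for all 7. Without it the differences were -1.51 to -0.62.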
